A study of Gallus gallus with 4 samples.

Results

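Genes of families known for writing, erasing or reading chromatin marks, moving nucleosomes or making up chromatin were examined in the breast muscle of male broilers. They were chosen by the start of the gene symbol on the array platform (HDAC, SIRT, SETD, SMARC, CHD, BRD, CBX, HMGA, HMGB, DNMT, PRMT and similar families). The rule matched 45 features and 43 symbols, and 41 of these genes, each through 1 feature, had a measured ratio on all 4 arrays, of 3494 named genes in all. HDAC10 and the histone gene H2AFJ (H2A-IX on the platform) each lacked a value on 1 array. The named features included 0 from the KAT, MYST, KDM, ARID and SUV families.

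Each two-colour array held breast muscle RNA labelled High Efficiency in channel 2 (Cy5) and Low Efficiency in channel 1 (Cy3), and the 4 arrays are labelled as biological replicates. High efficiency means much body weight gained per unit of feed, measured at 6 to 7 weeks of age. All birds were untreated males of 1 broiler line in individual cages, and their feed, based on corn and soy, held approximately 20.5% protein and 3280 kcal per kg. With 0 arrays of swapped dyes, an effect of dye cannot be told apart from one of group. The labels do not say whether RNA of several birds was pooled, and the p-values measure only the spread between these 4 arrays, whose ratios correlated across named genes with r of 0.204 to 0.309.

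DNA in the nucleus is wound around histones, and enzymes add or remove acetyl and methyl groups on the histone tails or methyl groups on the DNA. Reader proteins with bromodomains, chromodomains or PHD fingers bind such marks, and remodelling enzymes use ATP to slide or evict nucleosomes. In skeletal muscle these proteins are known for silencing and opening muscle genes during differentiation, and several deacetylases act outside chromatin, in mitochondria or the cytoplasm.

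Values are log2 ratios, likely high over low, with the median of each array at 0. The direction is taken from the labels, on the convention that channel 2 is the numerator, and every sign turns around if the numerator was Cy3. Means are given ± SD (n = 4). A gene was called when limma's adjusted p, with Benjamini-Hochberg adjustment over all 3494 named genes, was under 0.05, and "rose" or "fell" is used only of called genes. The ratios carry no level, so the tissue could not be checked against its defining genes, and fewer cells of a type cannot be told apart from less RNA per cell. The number of arrays limits the precision, and signal over background was not analysed here.

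With the median of each array at 0, the chromatin genes that differed between the groups were higher in high-efficiency muscle, by small amounts. Of the 41, 13 rose, 0 fell and 28 did not pass the limma test. The called genes were SETDB1, SMARCAL1, BRD7, CBX3, SETD3, BRD8, HMGB1, ING1, SMARCE1, BRD3, SIRT3, HDAC8 and CBX1, with mean ratios of 0.25 to 0.88. Among them SMARCAL1, SETD3 and SIRT3 belong by symbol and are known chiefly for other work, as given below. Over all named genes 24.6% were called, 18.5% higher and 6.1% lower, beside 31.7% higher among the chromatin genes. Before adjustment, limma gave 15 chromatin genes p under 0.05 on the higher side and 0 on the lower side. The unmoderated t statistic, after adjustment, called 11 higher and 0 lower. With that statistic most calls over all named genes were higher too, so nothing particular to chromatin genes is read from the 11. The median chromatin gene stood at 0.04, against 0.01 for all named genes. Chromatin genes above 0 on all 4 arrays numbered 16, or 39%, and 1 lay below 0 on all 4 arrays, against 31.1% and 15.6% of all named genes. The counts fell whichever array was left out: without array 1, 2, 3 and 4 the limma calls among chromatin genes numbered 6, 0, 0 and 2, all of them higher. Of all named genes 11.6% were called without array 1 (8.56% higher, 3.01% lower), 0.114% without array 2, 0.143% without array 3 and 5.67% without array 4 (4.12% higher, 1.55% lower). Before adjustment, the chromatin genes with p under 0.05 numbered 15 higher and 4 lower without array 1, 14 and 1 without array 2, 14 and 0 without array 3, and 13 and 0 without array 4. The share of all named genes at p under 0.05 before adjustment was not computed. Nothing particular to chromatin genes is therefore read from the counts before adjustment.

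**Figure D1:**
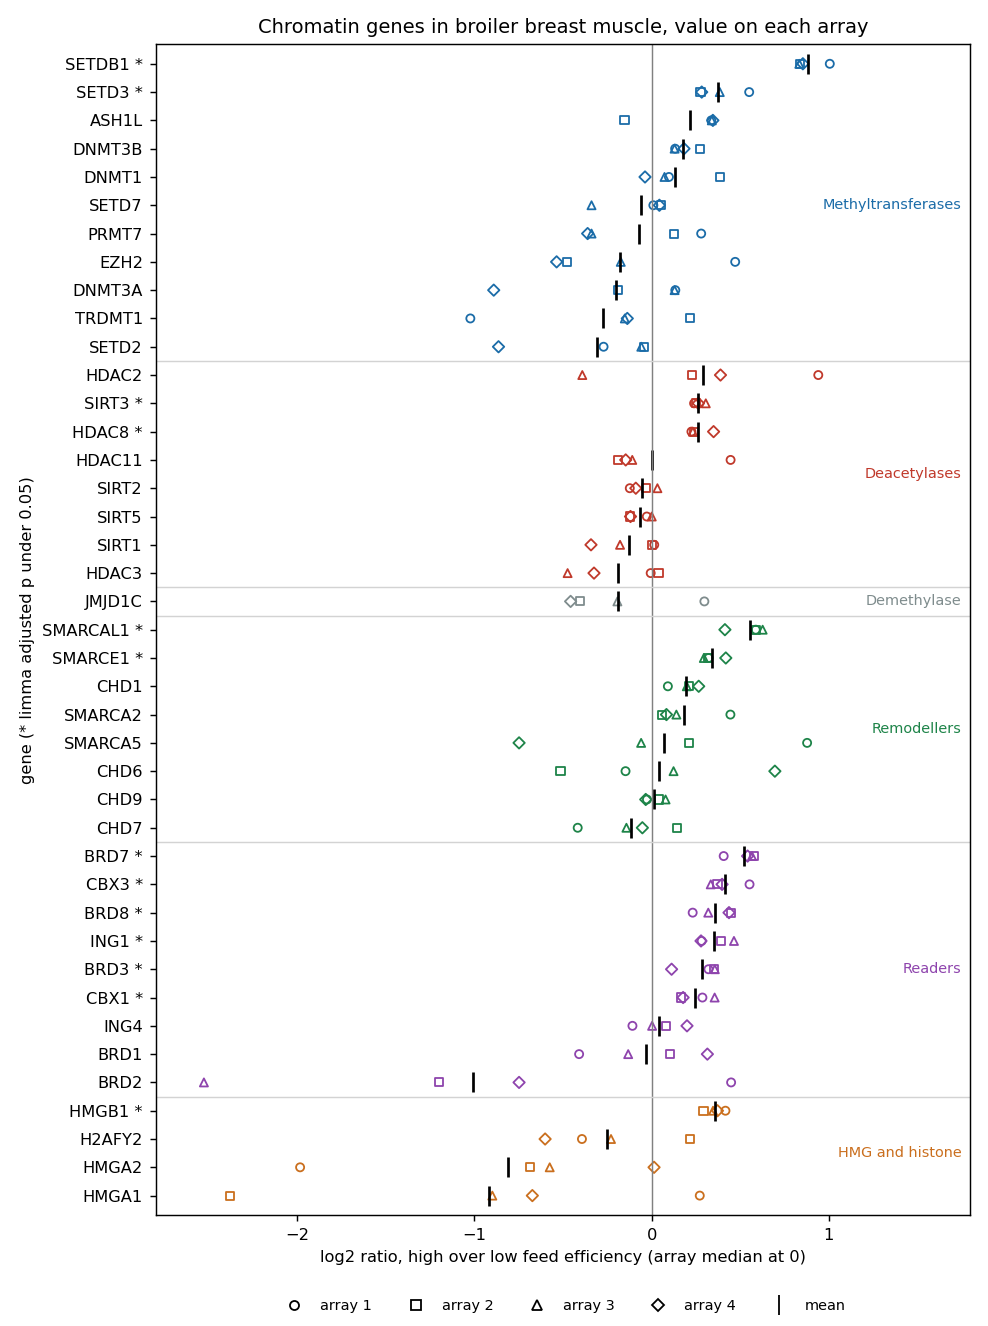
Log2 ratio, high over low feed efficiency (x axis, array median at 0), of the 41 chromatin genes (y axis, grouped by role); symbols are the 4 arrays, the bar is their mean, and an asterisk marks an adjusted p under 0.05. The 13 marked genes lie right of 0 on every array, while BRD2, HMGA1, HMGA2 and others such as SMARCA5 and HDAC2 spread over more than 1 unit.

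Among the methyltransferases 2 of 11 rose, 0 fell and 9 did not pass, beside 18.5% higher and 6.1% lower of all named genes. SETDB1, which methylates histone H3 at lysine 9 and silences genes and repeats, stood at 1.01, 0.84, 0.83 and 0.85 on arrays 1 to 4. It was 1.84-fold higher in high-efficiency muscle (0.88 ± 0.08, adjusted p = 0.00712). All 4 values lay between the 97.6th and 98.6th percentile of the named genes of the same array, a rank that no centring of the arrays can alter. SETD3, known in mammals as a methyltransferase of actin at a histidine and named here only by its SET domain symbol, stood at 0.55, 0.28, 0.39 and 0.28 and rose 1.30-fold (0.37 ± 0.13, adjusted p = 0.0259). Array 1 gave the highest value of both genes.

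The other histone and arginine methyltransferases varied around 0. ASH1L, which methylates lysine 36 of histone H3, read 0.34, 0.34 and 0.35 on arrays 1, 3 and 4 but -0.15 on array 2 (0.22 ± 0.25, adjusted p = 0.235). SETD7, a lysine methyltransferase of H3 and of other proteins, lay at 0.01, 0.05 and 0.04 on arrays 1, 2 and 4 and at -0.34 on array 3 (-0.06 ± 0.19). The spread of each came from 1 array. EZH2, the catalytic subunit of polycomb complex PRC2, read 0.47 on array 1 and between -0.54 and -0.17 on the others (-0.18 ± 0.46). The arginine methyltransferase PRMT7 (-0.07 ± 0.33) also had both signs.

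SETD2, the enzyme that trimethylates lysine 36 of histone H3 behind transcribing polymerase, was the 1 chromatin gene below 0 on all 4 arrays. Its values were -0.27, -0.04, -0.06 and -0.86 (-0.31 ± 0.38, adjusted p = 0.256). A second SETD2 feature, without a value on array 4, read -3.34, -2.51 and -4.55 on arrays 1 to 3, so both features had the same sign but very different sizes. With features measured on at least 3 arrays included, the gene mean was -1.56 and passed (limma, adjusted p = 0.0319). That value averages both features on arrays 1 to 3 and holds the first feature alone on array 4.

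None of the 4 genes with DNA methyltransferase symbols passed. DNMT3B, a de novo enzyme, was closest (0.13, 0.27, 0.13 and 0.18, mean 0.18 ± 0.07, adjusted p = 0.0641) and lay above 0 on all arrays. DNMT1, which copies methylation after replication, averaged 0.13 ± 0.18. DNMT3A, the other de novo enzyme, averaged -0.20 ± 0.48 with -0.89 on array 4. TRDMT1, named DNMT2 on the platform and known chiefly as a tRNA methyltransferase, averaged -0.27 ± 0.53 with -1.02 on array 1. The negative means of DNMT3A and TRDMT1 were each set largely by 1 array.

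Of 8 deacetylase genes 2 rose, 0 fell and 6 did not pass, beside 18.5% higher and 6.1% lower of all named genes. Deacetylase calls numbered 0 on leaving out any array and 0 when tested as features. Of all named genes 11.6%, 0.114%, 0.143% and 5.67% were called without array 1, 2, 3 and 4. Those called as features are counted in the section on processing below. As deposited the deacetylase calls numbered 4, all lower, beside 32.7% lower of all named genes in that form. SIRT3, the main mitochondrial protein deacetylase, stood at 0.24, 0.25, 0.31 and 0.26 and rose 1.20-fold (0.26 ± 0.03, adjusted p = 0.0195). Its SD was the lowest of the 41 genes. HDAC8, a class I enzyme known for deacetylating the cohesin subunit SMC3, stood at 0.23, 0.24, 0.23 and 0.35 and also rose 1.20-fold (0.26 ± 0.06, adjusted p = 0.0254). The 4 values of each gene stayed within 0.13 log2 units of each other.

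The remaining sirtuins lay at or just below the array median. SIRT1, the nuclear NAD-dependent deacetylase, read 0.02, 0.00, -0.18 and -0.34 (-0.13 ± 0.17, adjusted p = 0.329). SIRT2, largely a cytoplasmic tubulin deacetylase, averaged -0.05 ± 0.07 and SIRT5, the mitochondrial desuccinylase, -0.07 ± 0.06 (adjusted p = 0.487 and 0.364). On every array SIRT3 was above SIRT1, by 0.23, 0.25, 0.48 and 0.61, a gap in which any centring cancels; the pair was chosen after the values were seen. HDAC2, a subunit of the SIN3 and NuRD corepressor complexes, averaged 0.29 but ranged from -0.39 on array 3 to 0.94 on array 1 (SD 0.55, adjusted p = 0.421). HDAC3, the enzyme of the NCoR complex, averaged -0.19 ± 0.25, and HDAC11 0.00 ± 0.30 with 0.45 on array 1 and the others between -0.19 and -0.11. JMJD1C, the single demethylase family gene measured, read 0.30, -0.40, -0.19 and -0.46 (-0.19 ± 0.34).

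Of 8 remodelling genes 2 rose, 0 fell and 6 did not pass, beside 18.5% higher and 6.1% lower of all named genes. SMARCAL1, a helicase known for rewinding DNA at stalled replication forks and not for moving nucleosomes, stood at 0.59, 0.59, 0.63 and 0.41. It rose 1.47-fold (0.55 ± 0.10, adjusted p = 0.00962), between the 88th and 95.4th percentile of each array. SMARCE1, the HMG-box subunit of the SWI/SNF (BAF) complex, stood at 0.32, 0.32, 0.30 and 0.42 and rose 1.26-fold (0.34 ± 0.05, adjusted p = 0.0151). The catalytic ATPase of the same complex, SMARCA2, was above 0 on all arrays but did not pass (0.45, 0.06, 0.14 and 0.08, mean 0.18 ± 0.18, adjusted p = 0.202). SMARCA5, the ATPase of the ISWI complexes, had the widest spread of the group, at 0.88, 0.21, -0.06 and -0.75.

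The CHD family, ATPases that carry paired chromodomains, held no called gene. CHD1 came closest, at 0.09, 0.21, 0.20 and 0.27 (0.19 ± 0.07, adjusted p = 0.059), all above 0. A second CHD1 feature, without a value on array 2, read 0.05, 2.26 and 0.58, and with it the CHD1 mean was 0.48 and did not pass (limma, adjusted p = 0.226). CHD9 was among the least variable chromatin genes and lay at the array median (0.02 ± 0.05). CHD7, known in vertebrates for enhancers of neural crest genes, averaged -0.12 ± 0.23 and CHD6 0.04 ± 0.51.

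Of 9 readers 6 rose, 0 fell and 3 did not pass, with a group median of 0.29, beside 18.5% higher and 6.1% lower of all named genes. Reader calls numbered 2 (both higher) when the least variable features were centred at 0, 2 (both lower) as deposited, 1 when tested as features, and 3, 0, 0 and 0 without array 1, 2, 3 and 4. No test was made between role groups. BRD7, the bromodomain subunit of the polybromo form of SWI/SNF, stood at 0.41, 0.58, 0.57 and 0.54 and rose 1.44-fold (0.52 ± 0.08, adjusted p = 0.00931). BRD8, a subunit of the NuA4/TIP60 acetyltransferase complex, stood at 0.23, 0.45, 0.32 and 0.44 (0.36 ± 0.10, adjusted p = 0.0212). BRD3, a BET protein that binds acetylated histones, stood at 0.32, 0.35 and 0.36 on arrays 1 to 3 and at 0.11 on array 4 (0.29 ± 0.12, adjusted p = 0.0413).

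Both heterochromatin protein genes measured rose with the array median at 0, and both had means below 0 as deposited. CBX3 (HP1 gamma) stood at 0.55, 0.37, 0.33 and 0.40 and rose 1.33-fold (0.41 ± 0.10, adjusted p = 0.0157). CBX1 (HP1 beta) stood at 0.29, 0.17, 0.36 and 0.18 and rose 1.19-fold (0.25 ± 0.09, adjusted p = 0.0427). Both proteins bind H3 methylated at lysine 9, a mark that SETDB1 and other enzymes make; of these EHMT1 did not pass (-0.08 ± 0.75). SETDB1 was above CBX3 by 0.45, 0.47, 0.50 and 0.46 on arrays 1 to 4, and above CBX1 by 0.72, 0.67, 0.48 and 0.68. Both gaps hold for any centring and were picked out after the values were seen. ING1, a PHD-finger subunit that ties the SIN3 deacetylase complex to methylated lysine 4 of H3, stood at 0.28, 0.39, 0.47 and 0.28 and rose 1.28-fold (0.35 ± 0.09, adjusted p = 0.0193), while ING4, of acetyltransferase complexes, lay at the median (0.04 ± 0.13).

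BRD2, the other BET gene measured, had the lowest mean and the largest SD of the 41, at 0.45, -1.20, -2.53 and -0.75 (-1.01 ± 1.23, adjusted p = 0.239). BRD1, a scaffold of histone acetyltransferase complexes, ranged from -0.41 to 0.32. On arrays 2 to 4 BRD7 was above BRD2 by 1.77, 3.09 and 1.29, and on array 1 below it by 0.04, so the order of these family members was not the same on every array.

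**Figure D2:**
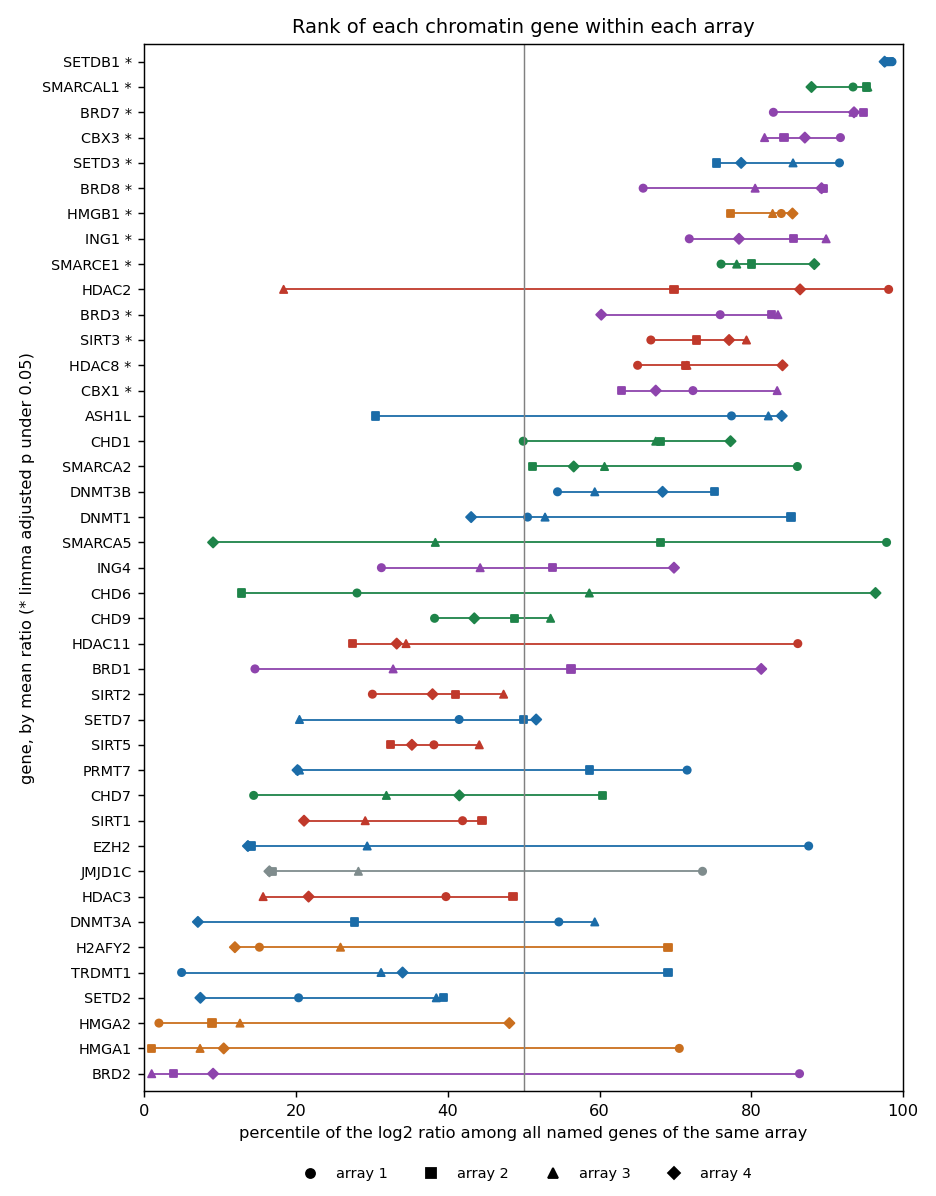
Percentile of each chromatin gene's log2 ratio among the 3494 named genes of the same array (x axis), genes ordered by mean ratio (y axis), with 1 symbol per array and a line from the lowest to the highest. The 13 called genes, marked by asterisks, lie between 60.2 and 98.6 on every array, whereas BRD2 spans 0.944 to 86.4.

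Of the HMG and histone genes 1 of 4 rose and 0 fell, beside 18.5% higher and 6.1% lower of all named genes. HMGB1, an abundant protein that bends DNA and can also act outside the cell as an alarm signal, stood at 0.42, 0.29, 0.35 and 0.37 and rose 1.28-fold (0.36 ± 0.05, adjusted p = 0.0133). The HMGA genes, whose AT-hook products bind the minor groove and are mostly made in embryonic and dividing cells, had low and scattered means: HMGA1 read 0.27, -2.38, -0.90 and -0.67 (-0.92 ± 1.10, adjusted p = 0.23). HMGA2 read -1.98, -0.69, -0.58 and 0.01 (-0.81 ± 0.84, adjusted p = 0.185). The array that was highest for HMGA1 was the lowest for HMGA2. H2AFY2, which encodes the variant histone macroH2A2, averaged -0.25 ± 0.35 (adjusted p = 0.298).

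The called genes and the others differed in spread as well as in mean. The 13 called genes had a median SD of 0.09, against 0.31 for the 28 that did not pass and 0.17 for all named genes. Of the 23 chromatin genes with an SD up to 0.2, 13 were called higher and 0 lower (56.5% higher), and their median was 0.26. Of the 1892 named genes with an SD up to 0.2, 33.7% were called higher and 7.93% lower, with a median of 0.13. Of the 18 chromatin genes with a larger SD 0 were called, near the 0.624% higher and 3.93% lower of the 1602 such genes in all, and their median of -0.18 stood beside -0.19 for those. The split was made after the values were seen, and because the SD enters the test itself these shares are a description. A part of signal strength in this pattern was not tested.

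**Figure D3:**
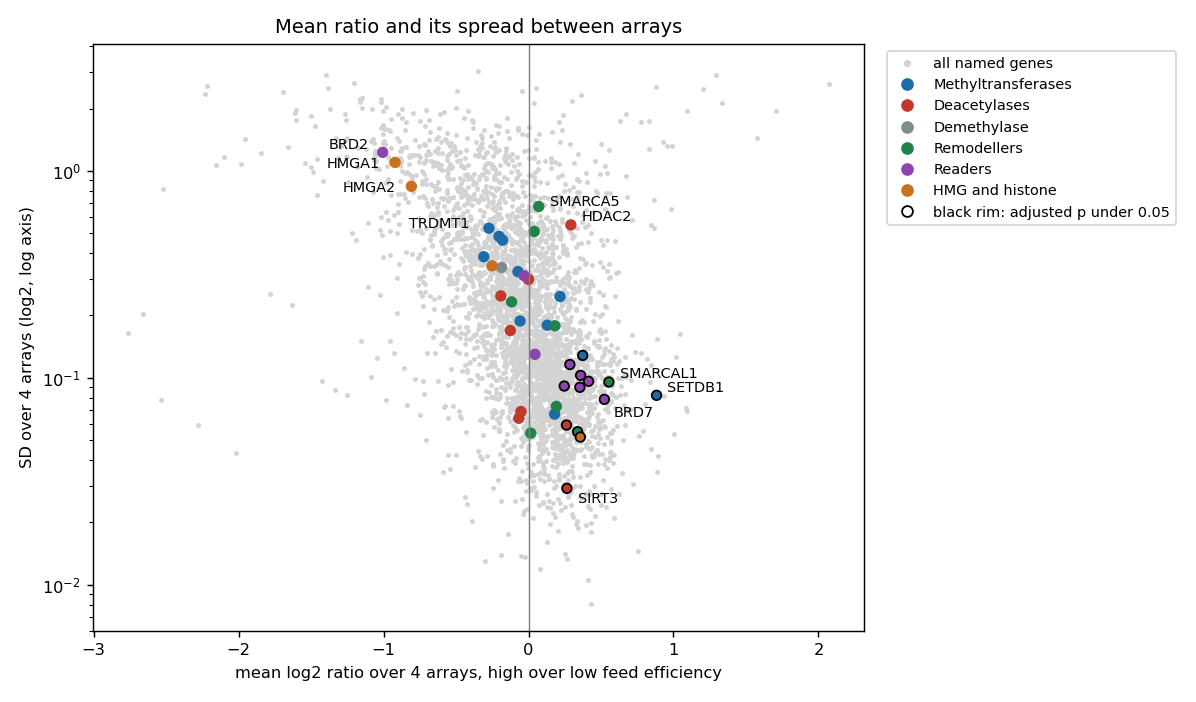
SD over the 4 arrays (y axis, log axis) against the mean log2 ratio, high over low feed efficiency (x axis), for all 3494 named genes in grey and the 41 chromatin genes coloured by role, with a black rim where the adjusted p was under 0.05. The rimmed genes lie at SDs of 0.03 to 0.13 and means of 0.25 to 0.88, while the genes with the lowest means have SDs near 1.

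The sign of most of these ratios rested on where the arrays were set to 0. Before centring, the medians lay at -0.19 on array 1, -0.49 on array 2, -0.58 on array 3 and -0.52 on array 4. As deposited, 3 of the 13 called genes kept a mean above 0: SETDB1 at 0.44 (adjusted p = 0.0563), SMARCAL1 at 0.11 and BRD7 at 0.08 (adjusted p = 0.466 and 0.529). The other 10 lay between -0.19 and -0.03. SETDB1 was above 0 on every array as deposited, at 0.82, 0.35, 0.26 and 0.34. In that form 0 chromatin genes were called higher by limma, with 1 at p under 0.05 before adjustment, and 12 were called lower (29.3%), beside 0.258% higher and 32.7% lower of all named genes, or 32.9% in all. When the 20% of features with the smallest SD were centred at 0 in place of all features, SETDB1 (0.74), SMARCAL1 (0.41), BRD7 (0.38), CBX3 (0.27) and HMGB1 (0.22) passed as higher and SIRT5 (-0.21) as lower, or 12.2% and 2.44% of the chromatin genes beside 7.7% and 10.9% of all named genes. Over all named genes the median was 0.01 for arrays centred on all features, -0.13 for arrays centred on the least variable ones and -0.43 as deposited, and every ratio is relative to that choice. Tested as single features over the whole array, SETDB1, SMARCAL1 and BRD7 passed, or 7.32% of the chromatin genes. The share of all named genes called in that test was nearly as large, so the chromatin genes did not stand out in it. Those named genes are counted in the section on processing below. Of all features 3.97% were called, most of them without a gene name. That share of features is therefore no background for the 41 genes, and no excess is read from it.

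**Figure D4:**
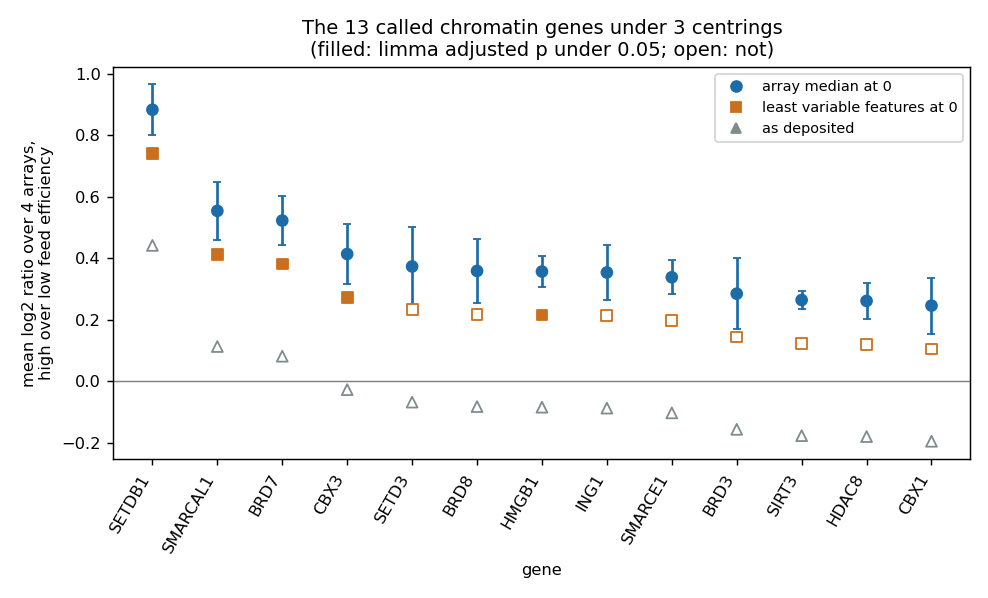
Mean log2 ratio, high over low feed efficiency (y axis), of the 13 called chromatin genes (x axis) centred on the array median (circles, error bars are the SD, n = 4), centred on the least variable features (squares) and as deposited (triangles); filled symbols have an adjusted p under 0.05. The other centrings shift all genes by the same amount, and SETDB1, SMARCAL1 and BRD7 lie above 0 in each.

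Partners of these proteins that the symbol rule does not match were followed in a list of 166 symbols, of which 45 genes were measured. Of these 11 rose, 2 fell and 32 did not pass, with a median of 0.02, and both shares were near the 18.5% higher and 6.1% lower of all named genes. MORF4L2 (0.34), counted among the 11, is MORF4L1 on the platform and was renamed through a RefSeq synonym. With platform symbols, genes were still looked up by their updated names, so renamed ones could go unmatched. In that count 42 genes were matched, of which 10 rose and 2 fell. The higher genes with the smallest p were NCOA2, a nuclear receptor coactivator (0.43 ± 0.04, adjusted p = 0.00936), H3F3B, which encodes the replacement histone H3.3 (0.50 ± 0.08, adjusted p = 0.01), and SAP18 of the SIN3 complex (0.42 ± 0.07, adjusted p = 0.0125). The histone chaperone NAP1L1 (0.38 ± 0.06), the histone-binding subunit RBBP4 (0.33 ± 0.05) and the methyltransferase SMYD2 (0.43 ± 0.10) followed, with adjusted p = 0.013, 0.0151 and 0.0157. HIRA, the chaperone that deposits H3.3, fell 1.47-fold (-0.85, -0.61, -0.39 and -0.39, mean -0.56 ± 0.22, adjusted p = 0.0269). RUVBL1, an ATPase of the INO80, SRCAP and TIP60 complexes, fell 1.18-fold (-0.24 ± 0.06, adjusted p = 0.0319). As deposited, 9 of the 11 higher partners had means below 0, between -0.19 and -0.02, SAP30 (-0.18) among them, and H3F3B (0.06) and SMYD3 (0.11) had means above 0, with adjusted p = 0.665 and 0.579.

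**Figure D5:**
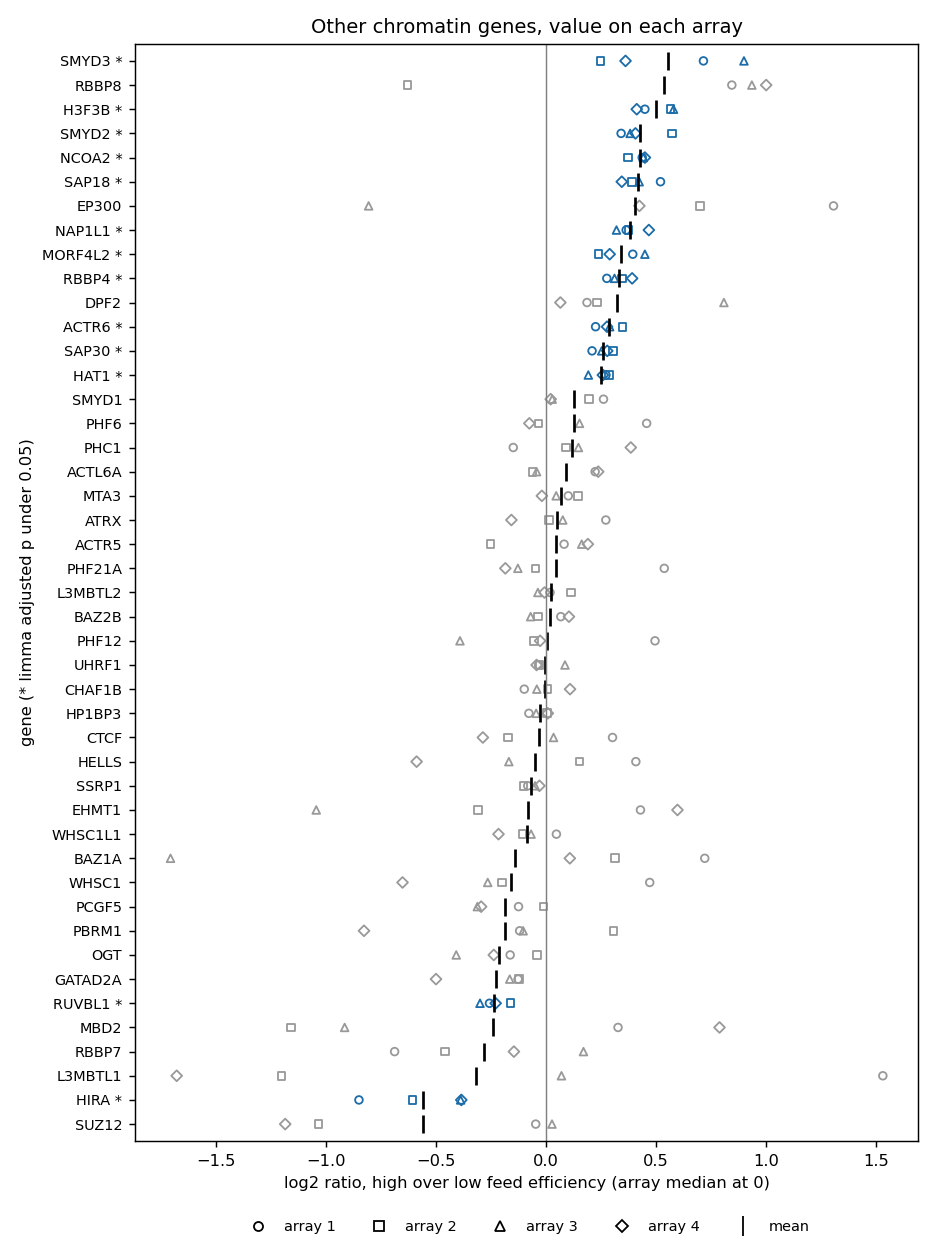
Log2 ratio, high over low feed efficiency (x axis, array median at 0), of the 45 other chromatin genes measured (y axis, by mean); symbols are the 4 arrays, the bar is their mean, and blue symbols with an asterisk mark an adjusted p under 0.05. H3F3B lies right of 0 and HIRA left of 0 on every array.

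Read beside the partners, subunits of the same complex did not all pass or share a sign. The groupings below follow textbook complexes of mammals, were made after the values were seen and carry no test. In the SIN3 deacetylase complex ING1, SAP18, RBBP4 and SAP30 (0.26 ± 0.04, adjusted p = 0.0215) rose, while HDAC2 (0.29 ± 0.55) and RBBP7 (-0.28 ± 0.37) did not pass. In SWI/SNF, SMARCE1 and BRD7 rose, while SMARCA2, DPF2 (0.32 ± 0.33), ACTL6A (0.09 ± 0.16) and the polybromo subunit PBRM1 (-0.19 ± 0.47) did not pass. In PRC2, which shares RBBP4 and RBBP7 with SIN3, RBBP4 rose, while EZH2, RBBP7 and SUZ12 (-0.56 ± 0.64, adjusted p = 0.218) did not pass. Of the TIP60 subunits named above, BRD8 rose (0.36 ± 0.10) while RUVBL1 fell (-0.24 ± 0.06). Of the proteins that work beside the DNA methyltransferases, UHRF1, which guides DNMT1, lay at -0.01 ± 0.06, and the helicase HELLS at -0.05 ± 0.43. EHMT1, the other H3 lysine 9 methyltransferase named here, read 0.43, -0.31, -1.04 and 0.60.

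Markers of other cell types were counted beside the 18.5% higher and 6.1% lower of all named genes. The endothelial and erythrocyte lists lay near those shares, while the slow and cardiac-type muscle, leukocyte and adipocyte lists lay far from them. Of 16 measured proliferation genes 5 rose and 0 fell (median 0.16, array medians 0.15 to 0.27), and of 17 leukocyte markers 0 rose and 6 fell (median -0.31, array medians -0.45 to -0.23). Of 10 muscle stem cell and myogenic genes 3 rose and 1 fell, of 19 fibroblast and matrix genes 2 rose and 4 fell, of 9 endothelial and mural genes 1 rose and 1 fell, of 8 erythrocyte genes 2 rose and 0 fell, of 4 adipocyte genes 3 rose and 0 fell, and of 15 slow and cardiac-type muscle genes 0 rose and 12 fell. Their part in the ratios of the chromatin genes was not tested.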

How the data were processed

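The table deposited by the authors gives 1 log2 ratio of both dyes per feature and array; that the base is 2 follows from the values themselves, since simple fractions recur among the ratios. The sources used here do not state the numerator, scanner software, background correction or normalization. The labels' protocols name Trizol for the extraction and 2 µg of total RNA as input. Of 45220 features, 4625 to 5576 per array were empty and 107 to 157 sat at a ceiling of 16.61 and were treated as not measured. Features within 0.005 of 0 on at least 3 arrays (160, with 0 chromatin features among them) were left out. Replicate numbers came from the sample titles.

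A platform table gave 4391 features 1 symbol each; 410 of 4046 symbols were replaced where RefSeq (assembly GRCg7b) listed the old one as synonym of a single gene, with no coordinates used. Arrays were centred on their median, features averaged per gene, and an intercept-only model fitted with limma 3.58.1 in R 4.3.3, tested against 0 (two-sided), adjusted over 3494 genes. The model was tested on simulated data. The chromatin genes and all lists were chosen with earlier results of these data known. Named were chromatin genes that passed, those with the smallest p in each role group or completing a family, and up to 6 partners per direction with the smallest p; further names, and most array values of genes that did not pass, were chosen after the values were seen.

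Alternatives were other centrings and scalings, robust, unmoderated and weighted fits, other thresholds, missing-value and exclusion rules, other gene values and symbols, a test over all features, and leaving out each array.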

Additional observations from a re-analysis of the deposited data

Results flagged for a closer look

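On 6 of the 41 chromatin genes 1 array stood far from the other 3. Its gap to the nearest value was, as a share of the gene's whole range, above Dixon's critical value. For normally distributed values chance alone marks about 1 in 20 genes. The share of all named genes marked in this way was not computed, so the 6 cannot be read as particular to chromatin genes. Array 1 was apart for SETDB1 (1.01, the others 0.83 to 0.85) and HDAC11 (0.45, the others -0.19 to -0.11). Array 2 was apart for ASH1L (-0.15, the others 0.34 to 0.35) and array 3 for SETD7 (-0.34, the others 0.01 to 0.05). Array 4 was apart for BRD3 (0.11, the others 0.32 to 0.36) and HDAC8 (0.35, the others 0.23 to 0.24). For SETDB1, BRD3 and HDAC8 the array that stood apart had the same sign as the others.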

How the results depend on the processing

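The 13 chromatin calls were all kept under array scaling, quantile normalization, robust moderation, array weights and kept near-0 or ceiling features. They were also kept with other gene values and platform symbols, which could not change their ratios because each gene had 1 feature. The near-0 features held 0 chromatin features, so keeping them added none. Called chromatin genes numbered 6 with the least variable features at 0 and 3 at adjusted p 0.01. They numbered 3 when features were tested over the whole array (SETDB1, SMARCAL1 and BRD7) and 0 to 6 on leaving out 1 array. The sign of the 13 could not change on leaving out 1 array, since each was above 0 on all 4 arrays. The median of all 41 chromatin genes was -0.40 as deposited and -0.10 with the least variable features at 0. BRD3 and CBX1 did not pass with the unmoderated statistic (adjusted p = 0.0668 and 0.0566) or with values on 3 arrays (0.0554 and 0.058). All named genes called numbered 171 at adjusted p 0.01, 229 when tested as features and 4 to 404 on leaving out 1 array (861 otherwise, 648 of them higher; 269 of 650 higher when centred on the least variable features, 9 of 1151 as deposited). Features called numbered 1258, and 3431 as deposited, 2494 unmoderated, 199 at adjusted p 0.01, 3715 at 0.1, 389 with values on 3 arrays and 120 to 142 on leaving out 1 array. Other chromatin genes called (13) numbered 1 at adjusted p 0.01, 2 as features and 0 to 6 on leaving out 1 array. The cause of these shifts was not tested, except that both other centrings lower all genes alike.

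As deposited, values changed sign for CBX3 (-0.027), SETD3 (-0.067), BRD8 (-0.082), HMGB1 (-0.084), ING1 (-0.087), SMARCE1 (-0.10), HDAC2 (-0.15), BRD3 (-0.16), SIRT3 (-0.18), HDAC8 (-0.18), CBX1 (-0.19), ASH1L (-0.22), CHD1 (-0.25), SMARCA2 (-0.26), DNMT3B (-0.26), DNMT1 (-0.31), SMARCA5 (-0.37), ING4 (-0.40), CHD6 (-0.40), CHD9 (-0.43), HDAC11 (-0.44), NCOA2 (-0.016), SAP18 (-0.022), NAP1L1 (-0.060), RBBP4 (-0.11) and SMYD2 (-0.016). With the least variable features at 0 they did for DNMT1 (-0.012), SMARCA5 (-0.071), ING4 (-0.10), CHD6 (-0.10), CHD9 (-0.13) and HDAC11 (-0.14). HDAC11, at 0.00, changed sign with scaled arrays (-0.0030), quantile normalization (-0.0012), kept near-0 features (-0.0018), kept ceiling values (-0.0015) and array weights (-0.059), as CHD6 did with array weights (-0.016). On leaving out 1 array, genes that changed sign ranged from -0.20 to 0.34 (SMARCA5), -0.15 to 0.064 (HDAC11), -0.15 to 0.10 (BRD1), -0.0060 to 0.031 (CHD9), -0.095 to 0.035 (SETD7), -0.19 to 0.023 (PRMT7), -0.0077 to 0.095 (ING4), -0.18 to 0.22 (CHD6) and -0.32 to 0.026 (DNMT3A); 0 of these were called. No paired analysis was possible because there is a single group of ratios with no second group to block, beyond the test against 0, in which each ratio already pairs both RNAs of an array. The ratios hold no depth or signal over background.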

Other observations

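HDAC10, a cytoplasmic polyamine deacetylase in mammals, had values on 3 arrays, -0.36 on array 1, -1.14 on array 3 and -2.19 on array 4, all below 0. The histone gene H2AFJ read -2.48, -1.62 and 0.74 on arrays 1, 2 and 4. With values on at least 3 arrays allowed, neither passed (limma, adjusted p = 0.168 for HDAC10 and 0.403 for H2AFJ).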
